A study of Homo sapiens and synthetic construct with 52 samples.

Results

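The guides described here target 10 genes of the NUDC family and of the cytoplasmic dynein motor: NUDC, NUDCD1, NUDCD2, NUDCD3, DYNC1H1, DYNC1I2, DYNLRB1, PAFAH1B1, DCTN1 and NDEL1. They were taken by name, as every guide whose label starts with 1 of these symbols, which gave 55 of the 103074 guides of the genome-wide CRISPRi V2 library, 11 of its 20375 promoter sets and 10 of its 18788 genes. Each set holds 5 guides against 1 promoter region, and DYNLRB1 has 2 sets, P1 and P2. The genes were chosen from values of these same screens, so the differences between groups in the 6 main comparisons are given as a description. Counts of members that passed a test stand there only beside the share of all guides or sets that did, and support nothing. Counts of guides whose groups did not overlap are also description only, since the share of all guides without overlap was not computed.

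All samples were K562 cells, a chronic myelogenous leukaemia line driven by the BCR-ABL1 kinase, or the plasmid pools themselves. The cells carried dCas9-KRAB, a catalytically dead Cas9 fused to a repressor domain that silences the promoter a guide is directed to, and were infected with 1 of 2 versions of the library, the publicly available legacy pool or the same guides recloned for evenness (LGR). In the survival screens, LGR cells were sampled after 7 days of culture (Tf: 3 samples at 1000-fold and 4 at 100-fold coverage of cells per guide) and when puromycin selection ended (T0: 1 and 2 samples). In the dasatinib screens, run at 100-fold coverage in each library, cells received 0.75 nM dasatinib, an inhibitor of the ABL and SRC kinases (2 samples), or 0.01% DMSO (2 samples) for 72 hours and were grown without it for another 6 days, and T0 was sampled 7 days after infection (2 samples). A titration sampled cells infected at 10, 50, 100 and 200-fold coverage with each library (2 samples at each), and each plasmid pool was sequenced as 1 sample. Each dasatinib screen was infected once and then split, so its replicates, like those of the survival screens, measure technical spread and not separate infections. Total counts per sample were 105684438 to 111002750 in the 1000-fold screen, 47678549 to 54678272 in the 100-fold screen, 15739255 to 19844033 in the dasatinib screens and 17582032 to 51399251 in the titration, and the LGR and legacy plasmids held 147511927 and 170431221. Between replicates of a group, counts varied by 2.75 to 86.7 times what counting error alone gives (chi-square per degree of freedom, 24 pairs), and the dasatinib samples, at 29.1 in LGR and 22.1 in legacy, were further apart than the DMSO samples, at 6.91 and 6.73.

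Cytoplasmic dynein carries cargo toward the minus ends of microtubules and positions the spindle and the nucleus in dividing cells. Its heavy chain holds the motor, its intermediate and light chains bind cargo and the dynactin complex, and LIS1, the product of PAFAH1B1, works with NDEL1 to activate it. NUDC was named for nuclear distribution in the mould Aspergillus, and the human family shares the CS domain, a fold also found in cochaperones of HSP90. NUDCD3 is known to keep the dynein intermediate chain stable, and NUDCD2 to keep LIS1 stable.

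The results turn on NUDC and NUDCD3, so the 250 bases before the annotated start of each gene are shown here as promoter sequence. Whether the guides bind within these bases was not determined. They come from RefSeq on GRCh38.p14, where NUDC lies on the plus strand (chr1:26921493-26921742, GC content 64.4%) and NUDCD3 on the minus strand (chr7:44490659-44490908, GC content 68.0%). Capitals mark the matches found on either strand to 4 short motifs. The CCAAT box was searched as its letters CCAAT and, for the other strand, as the letters ATTGG. The GC box was searched as GGGCGG and, for the other strand, as the letters CCGCCC. The ETS core was searched as CCGGAAG and, for the other strand, as the letters CTTCCGG. The TATA box was searched as TATAAA and, for the other strand, as the letters TTTATA. No match overlapped another.
NUDC: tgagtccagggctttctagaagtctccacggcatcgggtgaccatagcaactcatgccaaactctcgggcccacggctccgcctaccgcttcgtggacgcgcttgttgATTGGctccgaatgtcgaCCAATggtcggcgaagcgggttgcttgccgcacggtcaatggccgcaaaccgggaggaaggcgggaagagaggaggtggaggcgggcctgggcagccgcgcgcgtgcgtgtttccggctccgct
NUDCD3: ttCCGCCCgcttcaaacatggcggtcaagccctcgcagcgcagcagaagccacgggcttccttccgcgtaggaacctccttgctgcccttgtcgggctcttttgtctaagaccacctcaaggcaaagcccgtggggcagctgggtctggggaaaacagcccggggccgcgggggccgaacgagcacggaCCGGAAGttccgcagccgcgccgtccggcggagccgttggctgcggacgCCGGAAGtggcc
The NUDC window held 2 CCAAT box matches and none of the other motifs, and the NUDCD3 window held 1 GC box and 2 ETS core matches. Over all 35116 promoter windows of this length, 32.0% held a CCAAT box, 42.6% a GC box, 8.52% an ETS core and 10.7% a TATA box, which neither of these windows held. Guide names give a strand and a position, on hg19 as the submitters' processing notes list it, and are therefore not placed on these windows. By their names, the 5 NUDC guides spanned 271 bases with a smallest gap of 17, the 5 NUDCD3 guides spanned 404 bases with a smallest gap of 5, and the 5 DCTN1 guides spanned only 60, so guides of a set partly share their target.

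The survival screens address which guides are lost as cells divide. At 1000-fold coverage, guides against 7 of the 11 sets were depleted: NUDC, NUDCD3, DCTN1, DYNC1I2, DYNLRB1 P1, DYNC1H1 and PAFAH1B1. NUDCD1, NUDCD2, NDEL1 and DYNLRB1 P2 were not. Levels are given here as CPM, a guide's counts scaled to the sample's total, summed over the 5 guides of a set. NUDC guides summed to 10.5, 9.92 and 9.32 CPM in the Tf samples, against 36.0 CPM in the T0 sample. NUDCD3 guides summed to 12.5, 14.3 and 13.4 CPM in Tf, against 35.8 CPM in T0. In both sets every Tf sample lay far below T0, and the Tf samples differed little among themselves. Taken guide by guide, all 5 NUDC guides and 4 of 5 NUDCD3 guides were below T0 in every Tf sample, with the share of all guides not computed. The exception was the minus-strand NUDCD3 guide at 44529833, with 406, 592 and 444 counts in Tf and 551 in T0.

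Set phenotypes were computed as the log2 enrichment of a guide over its reference samples, relative to non-targeting guides, averaged over the 3 strongest guides of a set, and the SD is taken over the Tf or treated samples alone. In the 1000-fold screen NUDC and NUDCD3 stood almost at the same value, -2.82 ± 0.20 and -2.81 ± 0.52 (SD, n = 3). DYNC1I2, the intermediate chain through which dynein binds dynactin, was at -5.27 ± 0.63 and DYNLRB1 P1, a roadblock light chain, at -5.23 ± 0.27, the lowest of the 11. DCTN1, the p150Glued subunit of dynactin, was at -3.74 ± 0.19, DYNC1H1, the motor heavy chain, at -2.20 ± 0.10 and PAFAH1B1 at -1.67 ± 0.09. NUDCD1 was at 0.16 ± 0.01, NUDCD2 at -0.10 ± 0.06, NDEL1 at -0.05 ± 0.03 and DYNLRB1 P2 at -0.015 ± 0.012. By CPM all 5 NUDCD1 guides were above T0 in every Tf sample, with the share of all guides not computed. None of them was called higher, and the SD over single non-targeting guides was 0.232, more than the NUDCD1 value. With edgeR's quasi-likelihood test, 30 of 55 member guides were called lower at an adjusted p of 0.05, where 9.07% of all guides tested were, and 7 of 11 member sets were called lower in the Mann-Whitney test against non-targeting guides, where 7.19% of all sets were. The median member set was at -2.20 and the median of all sets at -0.05, but the members were picked on these values and nothing is read from the contrast. That screen has only 1 T0 sample, whose own spread is not known and was taken from Tf.

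**Figure D1:**
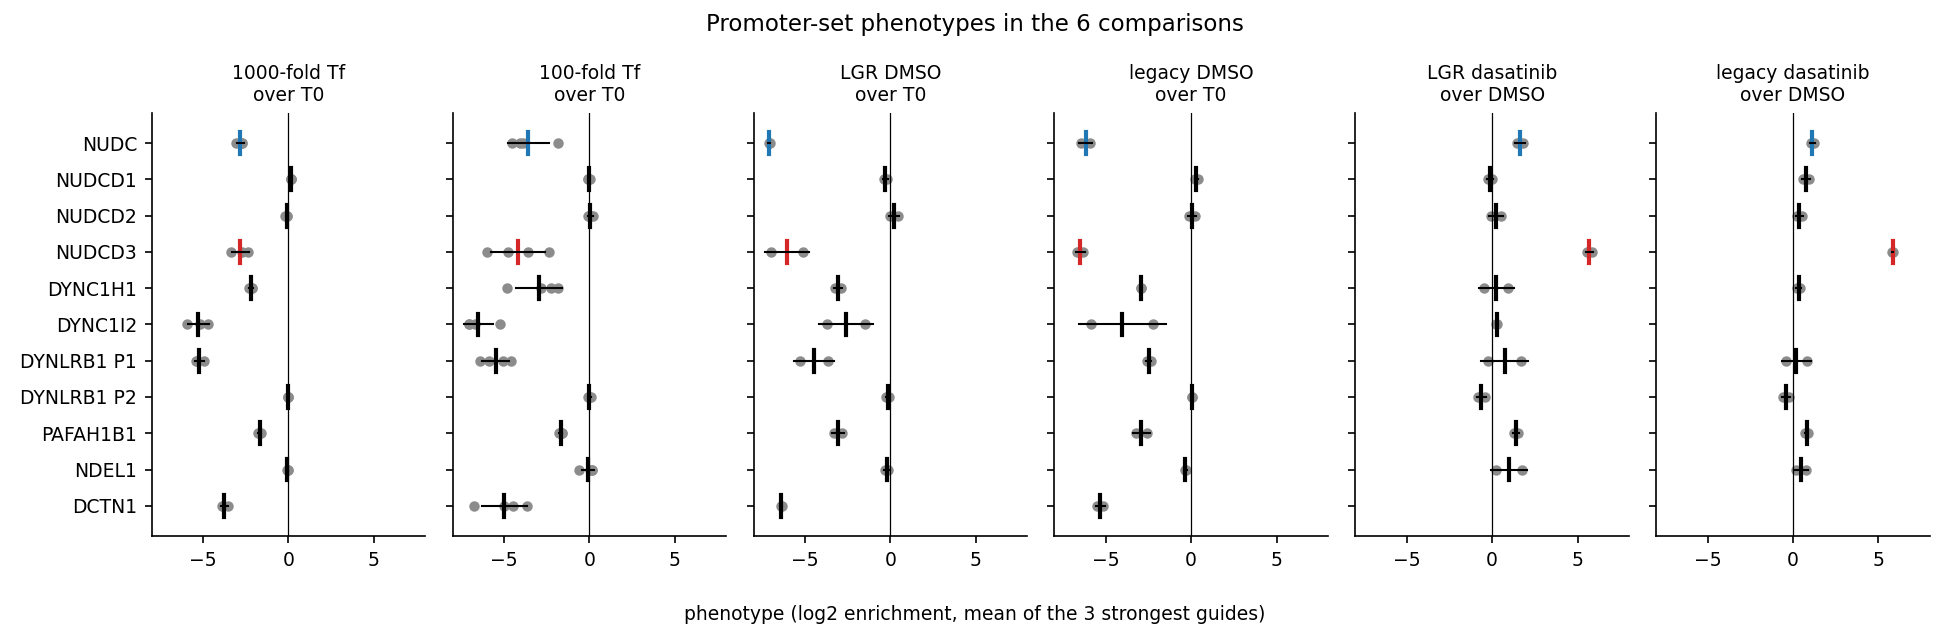
Phenotype of each of the 11 promoter sets (log2 enrichment, mean of the 3 strongest guides, horizontal axis) in the 6 comparisons. Grey points are samples, vertical ticks the mean and horizontal lines the SD over samples, with NUDC in blue and NUDCD3 in red. Their values are -2.82 and -2.81 in the 1000-fold screen, and under dasatinib NUDCD3 lies at 5.69 and 5.84 and NUDC, from the 1 guide with enough counts, at 1.64 and 1.14.

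At 100-fold coverage the same 7 sets lay below T0, with a wider spread between samples for all but PAFAH1B1. NUDC guides summed to 9.68, 7.97, 6.66 and 11.5 CPM in Tf, against 28.2 and 30.3 CPM in T0. NUDCD3 guides summed to 10.8, 12.7, 6.85 and 10.9 CPM in Tf, against 35.9 and 39.1 CPM in T0. The groups did not overlap in either set. Phenotypes were -3.57 ± 1.20 for NUDC, -4.17 ± 1.56 for NUDCD3, -6.50 ± 0.85 for DYNC1I2, -5.48 ± 0.81 for DYNLRB1 P1, -4.97 ± 1.31 for DCTN1, -2.93 ± 1.34 for DYNC1H1 and -1.67 ± 0.09 for PAFAH1B1 (SD, n = 4). By sample the NUDC phenotype ran from -4.51 to -1.82 and that of NUDCD3 from -5.97 to -2.34, and the Tf sample with the weakest NUDC phenotype held the strongest NUDCD3 phenotype. The spread came with low counts: in that sample the NUDCD3 guides at 44530206 and 44530237 had 2 and 0 counts, against 351 and 302 and against 261 and 448 counts in T0. edgeR called 24 of 55 member guides lower, where 5.68% of all guides were, and 5 of 11 sets were called lower, where 6.6% of all sets were. Without T0 replicate 1 the number of guides called was 15, and without T0 replicate 2 it was 13, with the remaining T0 sample assumed to vary like the Tf samples.

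Growth under DMSO repeated the comparison over a longer culture, 9 days after a T0 that was itself taken 7 days after infection, in both libraries. Here NUDC and NUDCD3 were among the most depleted of all sets. In LGR, NUDC guides summed to 2.23 and 1.27 CPM under DMSO, against 33.2 and 34.1 CPM in T0. NUDCD3 guides in LGR summed to 2.11 and 1.39 CPM under DMSO, against 28.6 and 29.4 CPM in T0. In legacy, NUDC summed to 6.07 and 4.13 CPM under DMSO, against 53.1 and 49.8 CPM in T0, and NUDCD3 to 7.73 and 6.45 CPM under DMSO, against 45.3 and 44.4 CPM in T0. Every DMSO sample lay below every T0 sample for all 5 guides of both sets in both libraries. The share of all guides with such a separation was not computed. Several guides were gone. The minus-strand NUDC guide at 27248261 had 0 and 0 counts under DMSO in LGR, against 191 and 136 counts in T0, which makes it at least 48.5-fold lower when a group at 0 is given 3 counts per library. This floor covers counting error only, since reads carry no molecular identifiers. By the same floor the NUDCD3 guide at 44530206 was at least 28.6-fold lower in LGR, and the guide at 44530237 at least 12.8-fold lower in LGR and 37.8-fold lower in legacy.

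In LGR, NUDC had the most negative DMSO phenotype of all 20346 sets with a value, -7.09 ± 0.04, and NUDCD3 was at -6.05 ± 1.30, the 20th most negative (SD, n = 2). The 3 NUDC guides behind that value had 0 or 1 counts under DMSO, with 0 set to 1, so its size and SD are set by the T0 level and the order among sets this close to the floor is not resolved. In legacy, NUDCD3 was the 4th most negative of 20334 sets, at -6.49 ± 0.26, and NUDC the 11th, at -6.18 ± 0.39. DCTN1 stood close to them, at -6.38 ± 0.04 in LGR and -5.32 ± 0.26 in legacy, with 0 and 0 counts for the guide at 74618953 under DMSO in each library. The order of the other dynein genes differed from the survival screens. DYNC1I2 was at -2.59 ± 1.58 in LGR from 2 guides and at -4.03 ± 2.55 in legacy from 1 guide, DYNLRB1 P1 at -4.44 ± 1.17 and -2.48 ± 0.15 from 4 guides each. PAFAH1B1 was at -3.05 ± 0.34 in LGR and -2.92 ± 0.48 in legacy, and DYNC1H1 at -3.06 ± 0.21 and -2.94 ± 0.01. NUDCD1, NUDCD2, NDEL1 and DYNLRB1 P2 lay between -0.34 and 0.30 in both libraries. Calls were made for 30 of 55 member guides in LGR, where 7.42% of all guides were lower, and for 26 of 54 in legacy, where 6.88% were. Of the 11 sets 5 were called lower in LGR (6.17% of all sets) and 6 in legacy (5.62% of all sets). With T0 replicate B left out, the LGR guide count was 19.

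Several of these sets, DYNC1I2 most, were already below their plasmid level at T0 of the dasatinib screens, in a comparison with the plasmids added after seeing the data. DYNC1I2 guides summed to 30.0 and 17.9 CPM at T0 in LGR, against 55.8 CPM in the plasmid, and to 8.42 and 9.02 CPM at T0 in legacy, against 39.7 CPM in the plasmid. The T0 over plasmid phenotype was -2.64 ± 0.39 and -2.90 ± 0.26 for DYNC1I2, and -1.63 ± 0.01 and -1.73 ± 0.09 for DYNLRB1 P1, in LGR and in legacy (SD, n = 2). DCTN1 was at -1.36 ± 0.34 and -0.87 ± 0.18, DYNC1H1 at -1.06 ± 0.16 and -0.95 ± 0.07 and PAFAH1B1 at -0.51 ± 0.015 and -0.71 ± 0.285. NUDCD3 was at -0.95 ± 0.10 in LGR and -0.66 ± 0.09 in legacy, and NUDC at -0.59 ± 0.08 in LGR and 0.61 ± 0.10 in legacy. The LGR plasmid was sequenced on a HiSeq and the legacy plasmid on a NextSeq, each as 1 sample. The SD therefore leaves out the plasmid, and the difference between libraries was not tested here. The guides against the intermediate chain entered the drug screen depleted, with 10 to 58 counts each in the legacy T0 samples. In the 100-fold survival screen, where T0 came when selection ended, the T0 over plasmid phenotype of DYNC1I2 was -0.36 ± 0.02 and that of NUDC -0.70 ± 0.23.

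**Figure D2:**
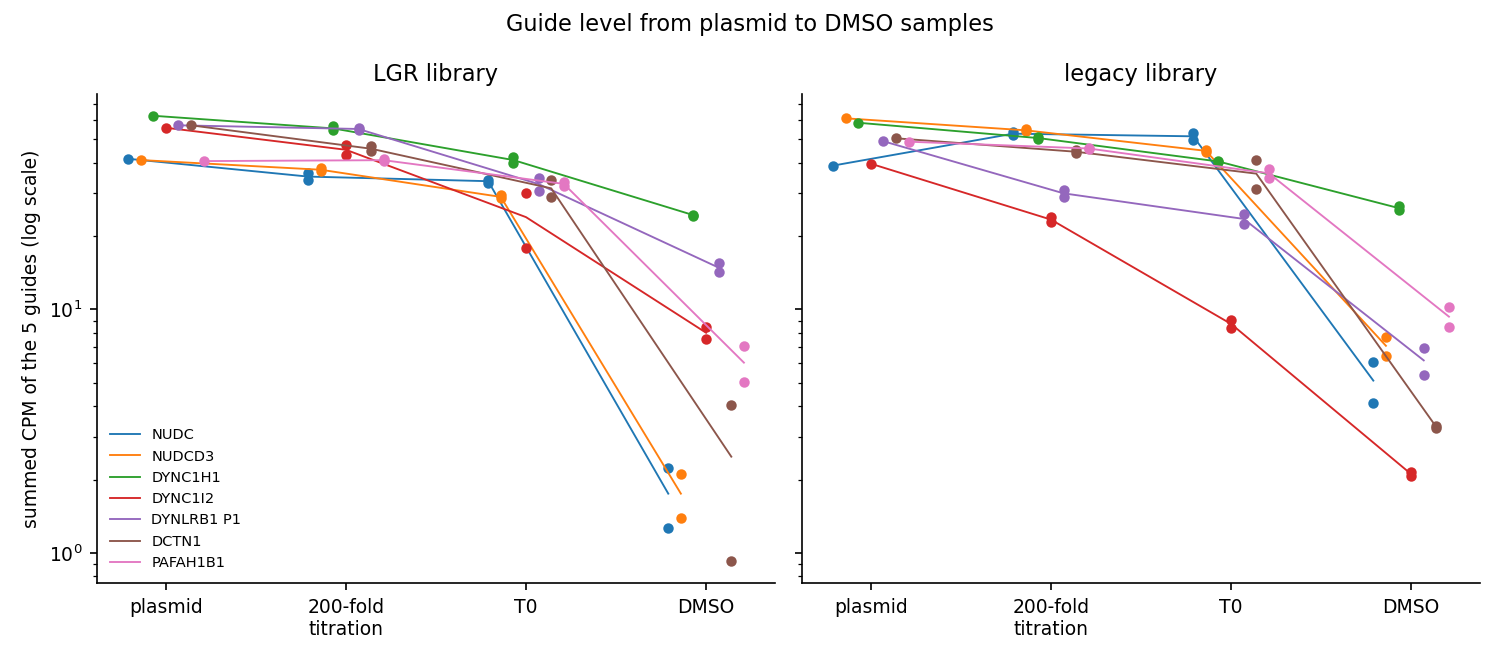
Summed CPM of the 5 guides of 7 depleted sets (vertical log axis) in the plasmid, the 200-fold titration samples, T0 and DMSO samples of each library. Points are samples and lines join the means. NUDC and NUDCD3 lie at 28.6 CPM or more up to T0 and at 1.27 to 7.73 CPM under DMSO, while DYNC1I2 is down to 8.42 and 9.02 CPM at T0 in legacy.

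The dasatinib samples ask which guides are enriched or depleted by the drug relative to DMSO, and here NUDC and NUDCD3 parted. Summed over its 5 guides, NUDCD3 was above its T0 level in dasatinib-treated cells, where DMSO cells had nearly lost it. The excess over T0 rests on the guide at 44529833, with a mean of 11.7 CPM against 5.21 at T0 in LGR and 28.8 against 13.7 in legacy. NUDCD3 guides in LGR summed to 32.7 and 37.1 CPM under dasatinib, against 2.11 and 1.39 CPM under DMSO. In legacy they summed to 52.6 and 61.2 CPM under dasatinib, against 7.73 and 6.45 CPM under DMSO. All 5 guides were above both DMSO samples in both dasatinib samples of each library, so the groups did not overlap for any guide. How many of all guides were separated in this way was not computed, so this is description only. Single guides differed against T0. In LGR the mean under dasatinib was 3.53 CPM for the guide at 44530206, 6.50 CPM for that at 44530211 and 1.20 CPM for that at 44530237, against 5.07, 6.99 and 2.27 CPM at T0, and in legacy the guide at 44530237 was at 2.0 CPM, against 6.54 CPM. The plus-strand guide at 44530195 had 185 and 200 counts under dasatinib in LGR, against 10 and 0 under DMSO, and 132 and 109 counts in legacy, against 4 and 6. The guide at 44530206 had 48 and 66 counts under dasatinib in LGR, against 0 and 0 under DMSO, at least 19.9-fold higher, and 98 and 151 counts in legacy, against 3 and 6. The guide at 44530211 had 96 and 114 counts under dasatinib in LGR, against 4 and 0 under DMSO, and 192 and 187 counts in legacy, against 0 and 1. The other 2, the least and the most abundant of the 5 under dasatinib in legacy, were also above DMSO. The guide at 44530237 had 5 and 34 counts under dasatinib in LGR and 37 and 29 in legacy, against 0 in every DMSO sample, at least 6.79-fold and 11.5-fold higher. The minus-strand guide at 44529833, which lies apart from the other 4, had 191 and 188 counts under dasatinib in LGR, against 21 and 24 under DMSO, and 369 and 602 counts in legacy, against 128 and 98.

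NUDC guides were also above DMSO under dasatinib, but with smaller gains in summed CPM, and far below T0. In LGR they summed to 8.72 and 7.08 CPM under dasatinib, against 2.23 and 1.27 CPM under DMSO. In legacy they summed to 10.9 and 9.88 CPM under dasatinib, against 6.07 and 4.13 CPM under DMSO. At the level of the set the groups did not overlap in either library, and 4 of 5 guides in LGR and 3 of 5 in legacy were above both DMSO samples. With 2 samples on each side, such a separation also arises by chance, and its share over all guides was not computed. The most abundant NUDC guide under dasatinib was the plus-strand guide at 27248532, with 66 and 50 counts under dasatinib in LGR, against 32 and 12 under DMSO, and 111 and 108 counts in legacy, against 69 and 46. The guide at 27248313 had 35 and 16 counts under dasatinib in LGR, against 1 and 0 under DMSO, and 3 and 18 counts in legacy, against 8 and 2. The guide at 27248296 had 14 and 12 counts under dasatinib in LGR, against 1 and 0, and 1 and 4 counts in legacy, against 0 and 4. These low counts give large fold changes with wide error. The guide at 27248426 had 25 and 36 counts under dasatinib in LGR, against 3 and 10, and 30 and 34 counts in legacy, against 28 and 16. The guide at 27248261, which had been lost under DMSO in LGR, had 0 and 1 counts under dasatinib there, and 27 and 10 counts in legacy, against 1 and 3. By edgeR's fit, which needs 10 counts in any sample, the median log2 fold change was 5.84 over the 5 NUDCD3 guides and 3.51 over the 4 NUDC guides tested in LGR, and 4.92 and 1.15 in legacy. The NUDCD3 guides at 44530206, 44530211 and 44530237 reached 10 counts under dasatinib alone in both libraries, so they had to be high there. So did the NUDC guides at 27248313 and 27248296 in LGR. In legacy the same held for the NUDCD3 guide at 44530195 and the NUDC guides at 27248313 and 27248261. The NUDC guide at 27248261 in LGR and that at 27248296 in legacy were too low to be tested.

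**Figure D3:**
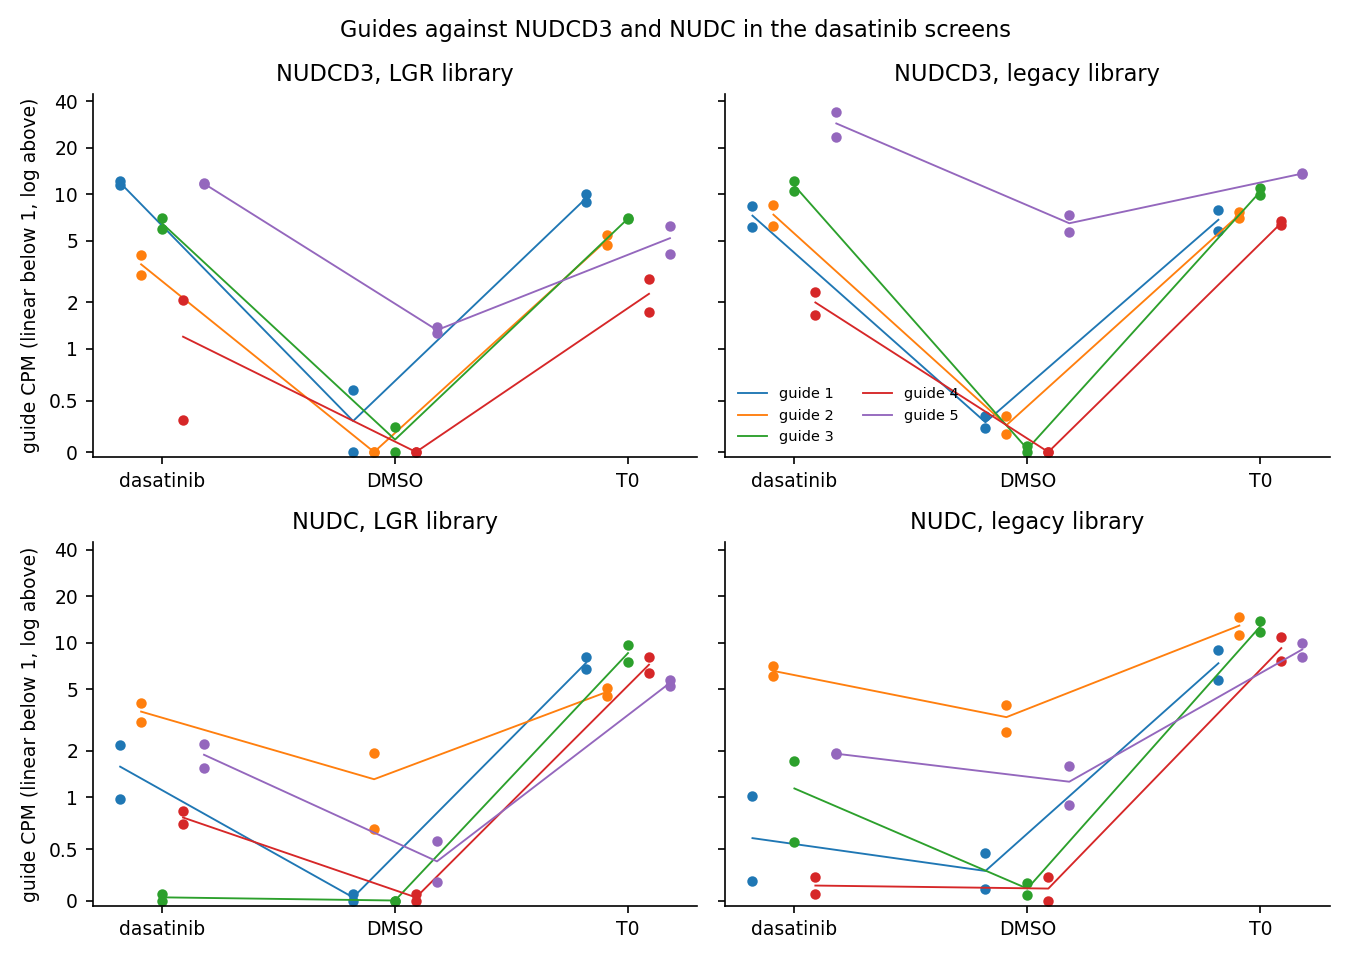
CPM of each guide against NUDCD3 (top) and NUDC (bottom) under dasatinib, under DMSO and at T0 in the LGR (left) and legacy (right) library. The vertical axis is linear below 1 CPM and logarithmic above, points are samples, lines join means, and guides 1 to 5 run from plus-strand to minus-strand guides, each in order of position. All 5 NUDCD3 guides are lowest under DMSO, and under dasatinib some lie above T0 and others, among them the guide at 44530237, below it, while NUDC guides stay below T0 under both treatments, the highest at 7.05 CPM in a legacy dasatinib sample.

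As a phenotype, NUDCD3 was at 5.69 ± 0.21 in LGR and 5.84 ± 0.04 in legacy (SD, n = 2), the 6th highest of 20129 sets and the 4th highest of 20151. Only guides with a mean of 50 or more counts in either arm enter a phenotype. Of the 4 NUDCD3 guides counted in each library, only the guide at 44529833 in legacy also passed this minimum under DMSO, and the others passed through the dasatinib samples alone, so they had to be high there. The CPM and counts of all 5 guides given above do not depend on this minimum. NUDC was at 1.64 ± 0.27 in LGR and 1.14 ± 0.14 in legacy, each from the guide at 27248532 alone, 262nd and 530th in order. In LGR that guide also passed the minimum through dasatinib alone. PAFAH1B1 came next among the depleted sets, at 1.39 ± 0.17 in LGR and 0.80 ± 0.10 in legacy from 2 guides each. In LGR both passed the minimum through dasatinib alone, so they had to be high there. Of the guides left out in LGR, those at 2497037, 2497281 and 2497388 were at 1.73, 0.279 and 1.67 CPM under dasatinib. Under DMSO they were at 0.793, 0.533 and 1.14 CPM. In legacy those at 2497281, 2497305 and 2497388 were at 0.61, 1.49 and 0.184 CPM, against 0.433, 1.58 and 0.348 CPM under DMSO. DYNC1H1 was at 0.24 ± 1.02 and 0.33 ± 0.13, and DYNLRB1 P1 at 0.74 ± 1.38 from 2 guides and 0.20 ± 0.87 from 1 guide. DYNC1I2 was at 0.27 ± 0.05 in LGR from 1 guide, at 172544670, and had no guide past the minimum in legacy. In LGR its guides at 172544224, 172544248, 172544630 and 172544214 were at 0.0, 0.0, 0.125 and 0.34 CPM under dasatinib. Under DMSO they were at 0.752, 0.232, 0.934 and 0.118 CPM. In legacy these 4 were at 0.441, 0.234, 0.0 and 0.142 CPM, against 1.18, 0.32, 0.0 and 0.377 CPM under DMSO. The guide at 172544670 was at 1.67 CPM in legacy, against 0.23 CPM. DCTN1 had no guide past the minimum in either library. Its guides summed to 4.92 and 2.83 CPM under dasatinib in LGR, against 4.04 and 0.926 CPM under DMSO, and to 4.13 and 1.82 CPM in legacy, against 3.26 and 3.31 CPM. These DCTN1 values overlapped between the treatments. Of the sets that were not depleted, NDEL1 was at 0.98 ± 1.06 and 0.47 ± 0.39, NUDCD1 at -0.13 ± 0.17 and 0.74 ± 0.25, NUDCD2 at 0.23 ± 0.39 and 0.38 ± 0.21 and DYNLRB1 P2 at -0.63 ± 0.27 and -0.40 ± 0.23.

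edgeR called 1 of 49 member guides higher under dasatinib in LGR, the NUDCD3 guide at 44529833, where 0.0954% of all guides were. At an unadjusted p under 0.05, 7.39% of all guides were higher and 4.6% lower, and 14 member guides were higher. None was called lower, where 0.00393% of all guides were, and none was lower at an unadjusted p under 0.05 or by DESeq2, but 1 and 2 were without dasatinib replicate 1 and 2. In legacy 4 of 49 were called higher, the NUDCD3 guides at 44530195, 44530206, 44530211 and 44529833, where 0.572% of all guides were. Those at 44530195, 44530206 and 44530211 entered this test through their dasatinib counts alone, so the count supports nothing. At an unadjusted p under 0.05, 8.24% of all guides were higher and 4.54% lower in legacy, and 11 member guides were higher. None was called lower in legacy, where 0.0349% of all guides were, with 1 lower at an unadjusted p under 0.05, none by DESeq2 and 1 without dasatinib replicate 2. Among promoter sets NUDCD3 alone of the members was called higher, 1 of 10 with a value in LGR (0.631% of all sets) and 1 of 9 in legacy (0.645% of all sets). Its guides passed the count minimum through dasatinib alone, apart from the guide at 44529833 in legacy, so this too is description only. The LGR guide count depended on single libraries and on scaling: it was 8 and 10 without a dasatinib replicate, when 386 and 379 of 1888 and 1889 non-targeting guides were called too, 2 and 0 without DMSO replicate 1 and 2, and 0 without TMM scaling, and in legacy it was 9 and 8 without a dasatinib replicate and 2 without DMSO replicate 1.

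Set against T0 instead of DMSO, a comparison added after seeing the data, NUDCD3 was near 0 as a set. The dasatinib over T0 phenotype of NUDCD3 was 0.45 ± 0.12 in LGR and -0.12 ± 0.03 in legacy, and that of NUDC was -4.08 ± 0.33 and -4.61 ± 0.64 (SD, n = 2). DCTN1 was at -4.12 ± 1.51 and -5.13 ± 0.47 and PAFAH1B1 at -2.69 ± 0.14 and -2.83 ± 0.17. NUDCD3 was thus the set closest to T0 among the 7 depleted in the 1000-fold screen, in both libraries. Of its guides, the one at 44529833 was above T0, at 1.30 ± 0.03 in LGR and 1.12 ± 0.40 in legacy, and the guide at 44530237 below, at -1.37 ± 1.94 and -1.67 ± 0.35. The 1464 sets called lower in the 1000-fold screen give the background for such a return. Their median under dasatinib over DMSO was 0.38 in LGR (1220 with a value) and 0.34 in legacy (1248 with a value), with 4 and 1 of them above NUDCD3 and 172 and 236 above NUDC. Over T0 their median was -1.94 in LGR and -1.73 in legacy, with 60 and 164 above NUDCD3.

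**Figure D4:**
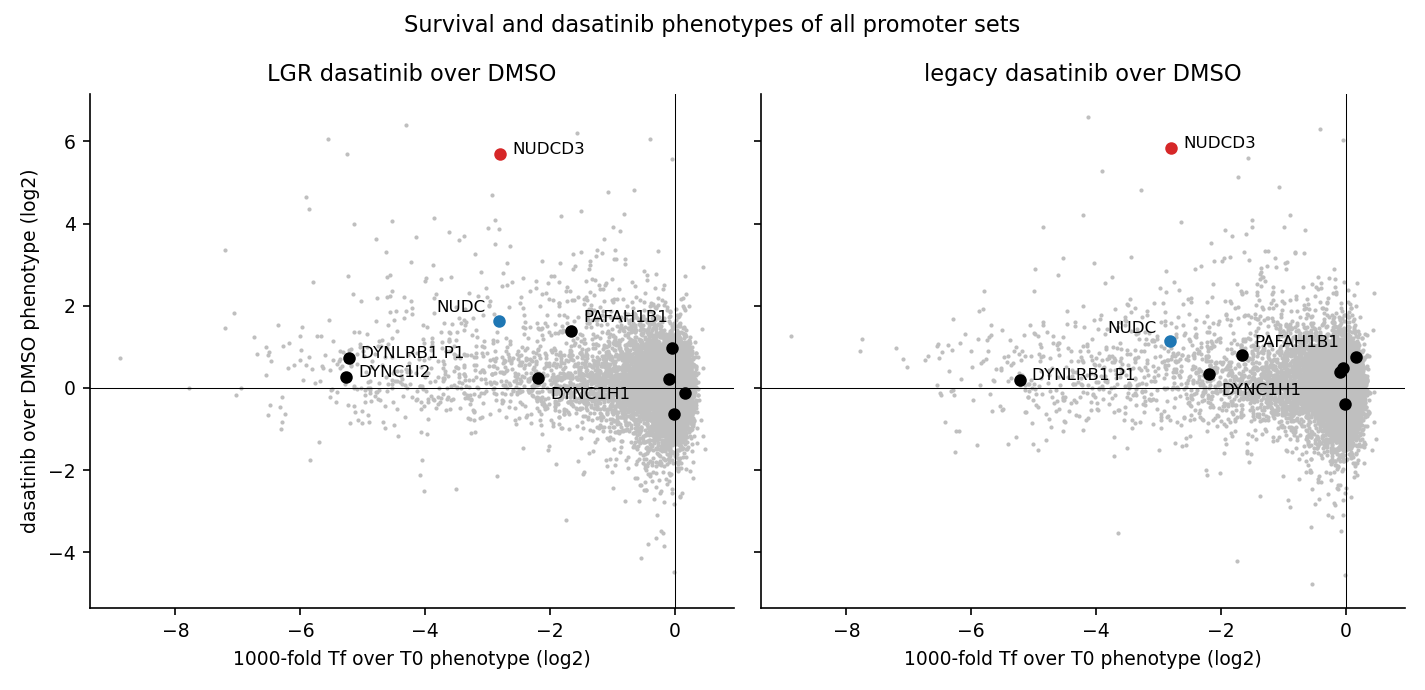
Each grey point is 1 promoter set, with its 1000-fold Tf over T0 phenotype on the horizontal axis and its dasatinib over DMSO phenotype on the vertical axis (both log2), for LGR (left) and legacy (right). Member sets are black, NUDC blue and NUDCD3 red, and members without a value under dasatinib are left out. NUDC and NUDCD3 share a horizontal position, at -2.82 and -2.81, and NUDCD3 stands at 5.69 and 5.84, above NUDC at 1.64 and 1.14, which rests on 1 guide.

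NUDC was set against NUDCD3 directly within each sample, as the mean log2 enrichment of all NUDC guides minus that of all NUDCD3 guides. In 3 of the 4 growth comparisons the difference was smaller than the spread between samples. It was -0.08 ± 0.48 in the 1000-fold screen (SD, n = 3), 0.41 ± 1.52 in the 100-fold screen (n = 4) and -0.46 ± 0.95 under DMSO in LGR (n = 2), and in each of these samples fell on both sides of 0. Under DMSO in legacy it was 0.34 ± 0.14, above 0 in both samples. Under dasatinib over DMSO it was -3.47 ± 0.42 in LGR and -3.81 ± 0.21 in legacy, with -3.17, -3.77, -3.66 and -3.96 in the 4 samples. That contrast rests on 1 NUDC guide against 4 NUDCD3 guides, and without the count minimum, with 5 guides on each side, it was -2.24 in LGR and -3.85 in legacy. Over T0, where all 5 NUDC guides and 4 NUDCD3 guides in LGR and 5 in legacy counted, it was -3.14 ± 0.31 and -3.35 ± 0.37.

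The titration samples and plasmids played no part in the choice of the genes, so the difference was tested there, with an exact two-sided sign-flip permutation test over 8 samples, for which the smallest possible p is 0.00781. In LGR the difference averaged 0.15 ± 0.59 and was above 0 in 4 of 8 samples (exact p = 0.789). Outside the 10-fold samples it lay between -0.18 and 0.18. Of the 10-fold samples 1 was at 1.56, and without the 10-fold samples the mean was -0.02. In legacy it averaged 0.54 ± 0.67, above 0 in 7 of 8 samples (exact p = 0.0625), and lay between 0.43 and 0.68 outside the 10-fold samples, at -0.78 and 1.68. Adjusted over the 2 libraries by Benjamini-Hochberg, p was 0.789 in LGR and 0.125 in legacy, so neither passed. The legacy value depended on the setting, with 0.57 without the 10-fold samples (exact p = 0.0312), 0.93 with the 3 strongest guides (exact p = 0.0156) and 0.65 with the median of all guides (exact p = 0.00781). These 3 p-values were not adjusted over the 2 libraries. In legacy NUDC guides averaged 0.43 over plasmid across the titration, and NUDCD3 guides -0.11. All 8 values of a library share its plasmid sample as denominator, and the plasmids were sequenced on different instruments. An error in the plasmid count would shift all 8 values alike, which the test does not measure.

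**Figure D5:**
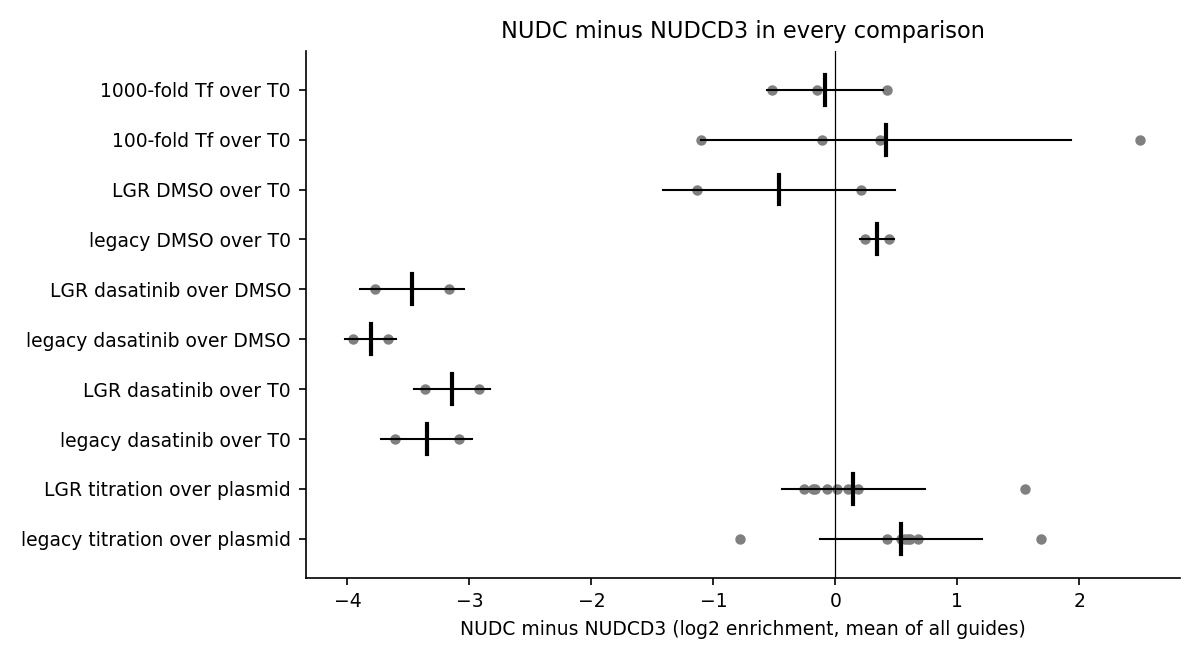
NUDC minus NUDCD3 (log2 enrichment, mean of all guides, horizontal axis) in 10 comparisons. Points are samples, vertical ticks the mean and horizontal lines the SD. The 8 dasatinib values lie between -3.96 and -2.92, those over DMSO resting on 1 NUDC guide, and the growth and titration means between -0.46 and 0.54.

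Over the titration itself no member guide was called in either library. With edgeR 0 of 55 guides passed in LGR, where 0.0213% of all guides did, with 0 at an unadjusted p under 0.05 and 0 by DESeq2. In legacy 0 of 54 passed, where 0.0137% did, with 2 lower and 1 higher at an unadjusted p under 0.05 and 0 by DESeq2. At that unadjusted threshold 1.07% of all guides were lower and 0.0388% higher in LGR, and 0.329% and 0.463% in legacy. When the 10-fold samples were left out, 2 member guides were called in LGR, with 2043 of all 103073 guides lower and 54 higher, and 5 in legacy, with 986 of 102244 lower and 746 higher. DYNC1I2 had the lowest titration phenotype of the members, -0.91 ± 0.74 in LGR and -1.01 ± 0.72 in legacy (SD, n = 8), with all samples below 0. Its values at 10-fold coverage were -2.50 and -1.55 in LGR and -1.87 and -2.31 in legacy, and at 50 to 200-fold coverage they ran from -1.03 to -0.34, the groups of coverage not overlapping.

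The difference between the libraries was tested guide by guide as the interaction of library and condition. No member guide passed in DMSO over T0, 0 of 54, where 0.152% of all guides did. At an unadjusted p under 0.05, 8 were lower and 4 higher in LGR, where 5.57% and 4.02% of all guides were. None passed in dasatinib over DMSO, 0 of 44, where 0.00301% did. At an unadjusted p under 0.05, 2 were lower and 5 higher, where 5.23% and 5.0% of all guides were. With 2 technical samples in each group a missed threshold does not show that the libraries agree. The plus-strand DYNC1H1 guide at 102430877 came closest, with 24 and 60 counts under DMSO in LGR, against 189 and 112 at T0, and 2 and 0 counts under DMSO in legacy, against 78 and 63 at T0.

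The 5 guides of a set did not act alike. In DYNC1H1, the guides at 102430877 and 102430947 carried the depletion in the 1000-fold screen, with 257, 181 and 249 and with 127, 137 and 164 counts in Tf, against 1712 and 1059 in T0. The minus-strand guides at 102430937 and 102430986 stayed near T0, with 831, 831 and 900 and with 1065, 1132 and 1010 counts in Tf, against 945 and 1143 in T0. In DYNLRB1 the loss was seen with 4 of the 5 P1 guides, the guide at 33104218 having 1296, 1393 and 1423 counts in Tf and 1296 in T0. None of the 5 P2 guides was called lower in any of the 4 growth comparisons. In DYNC1I2 the guide at 172544670 was the least depleted, with 606, 808 and 724 counts in Tf and 1442 in T0, and held most of what remained of the set under DMSO in LGR, 93 and 110 counts. In PAFAH1B1 all 5 guides were called lower in the 1000-fold screen and in both DMSO comparisons, and 1 of 5 in the 100-fold screen, with counts at 1000-fold coverage from 168, 156 and 147 counts in Tf against 624 in T0 to 465, 480 and 519 against 981.

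Other genes of the pathway, in lists drawn up with earlier results of these data known, are given as counts beside the 7.19%, 6.6%, 6.17% and 5.62% of all sets that were called lower in the 1000-fold screen, the 100-fold screen and under DMSO in LGR and legacy. Of 11 other dynactin sets, 4 were called lower in the 1000-fold screen, 3 in the 100-fold screen and 4 under DMSO in each library, with medians of -1.20, -1.14, -1.68 and -2.20. DCTN3, a subunit of the dynactin shoulder, was at -4.71, -5.40, -5.47 and -5.51, and DCTN2, dynamitin, at -3.36, -3.67, -4.59 and -3.56, while CAPZA2 and ACTR1B were near 0. Of 8 other dynein subunits 1, 1, 0 and 1 were called lower, DYNLL1, an LC8 light chain, being at -0.52 and DYNC1LI1, a light intermediate chain, at -0.32 in the 1000-fold screen, with DYNC1I1, the intermediate chain known from neurons, at -0.004. Of 14 sets for dynein adaptors and LIS1 partners 1, 2, 2 and 2 were called lower. Among them SPDL1, the adaptor Spindly at kinetochores, was at -3.70, -4.55, -4.16 and -3.26, and NDE1 P1, the relative of NDEL1, at -0.28, -0.82, -0.64 and -0.93, while HOOK1 and PAFAH1B2 were at 0.05 and 0.02 in the 1000-fold screen. Of 6 kinetochore and spindle pole genes 1, 1, 0 and 2 were called lower, with CENPF at -0.49 and ZW10 at -0.38 in the 1000-fold screen. GPSM2 of that list, chosen here after its values were seen, was called higher under dasatinib in legacy, at 1.43, and stood at 0.18 in LGR.

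Of 8 HSP90 and CS-domain genes 2, 3, 3 and 3 were called lower in the 4 growth comparisons, with medians of -0.53, -0.73, -1.29 and -1.38. SUGT1, an HSP90 partner with a CS domain, was at -2.69, -3.29, -5.33 and -4.34, and under dasatinib over DMSO at 2.50 in LGR and 1.72 in legacy. CHORDC1, also a CS-domain protein that binds HSP90, was at -0.29, -0.65, -2.77 and -3.45, and under dasatinib at 1.53 and 2.18. Neither was called higher under dasatinib, and SUGT1 over T0 remained at -2.64 and -3.63 and CHORDC1 at -1.29 and -1.57, where NUDCD3 was at 0.45 and -0.12. AHSA1 and ITGB1BP2 were near 0 in growth, at 0.01 and 0.06 in the 1000-fold screen. None of the 8 dynein, 11 dynactin and 14 adaptor sets of these lists was called higher under dasatinib in either library. Of all sets 0.631% were in LGR and 0.645% in legacy, so 0 calls among this few sets is near that share. In LGR and legacy, 8 and 8 dynein, 10 and 9 dynactin and 13 and 13 adaptor sets had a value. DCTN3 and SPDL1 had none in either library and could not be called.

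The sets most like NUDC and NUDCD3 over all 6 phenotypes were found by Euclidean distance among the 20055 sets with 6 values. DCTN1, DCTN3 and SPDL1 had no dasatinib value in either library and DYNC1I2 none in legacy. These sets were therefore not compared, and their likeness to NUDC or NUDCD3 is not known from the distances. Nearest to NUDC were RTCB, the tRNA ligase, at 1.46, GEMIN2, of the SMN complex, at 1.98 and THG1L, a tRNA-histidine guanylyltransferase, at 2.22. Nearest to NUDCD3 were MED18 at 4.23 and MED17 at 4.74, both of the Mediator head, and LEO1, of the PAF1 complex, at 4.83. The LGR and legacy dasatinib values rest on 1 and 1 guides for NUDC and RTCB, 1 and 2 for GEMIN2 and 2 and 1 for MED17. NUDC and NUDCD3 were 6.33 apart. The sets nearest to NUDC lay closer to it than those nearest to NUDCD3 did. The genes were chosen from these same phenotypes, and NUDCD3 was among the highest of all sets under dasatinib, so this is description only. The LGR and legacy dasatinib phenotypes were 3.44 and 4.03 for MED18, 4.14 and 2.56 for MED17 and 4.70 and 2.06 for LEO1, below the NUDCD3 values in each case.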

How the data were processed

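The authors counted reads per guide in each sample and deposited these counts, un-normalized, with hg19 and bcl2fastq named in the submitters' processing notes. The sources used here do not give the version of the counting tool. LGR and legacy pools were amplified with different reverse primers, and reads carry no molecular identifiers, so counts of a guide that is nearly lost rest on few cells. The titles of the HiSeq plasmids were followed where another label named the other library type. Of the samples, 40 entered: 12 of the dasatinib screens, 4 and 6 of the survival screens, 16 of the titration and 2 plasmids.

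A guide was tested where any sample of the comparison held 10 or more counts, with edgeR 4.0.16 (R 4.3.3, TMM, quasi-likelihood, Benjamini-Hochberg over all guides, threshold 0.05) on the deposited counts. Set phenotypes used log2 CPM enrichment over the mean CPM of the reference samples (a count of 0 set to 1) minus the median of non-targeting guides (1895 in the library), over guides with a mean of 50 or more counts in either arm, and the Mann-Whitney test (scipy 1.17.1) of a set against non-targeting guides. Scripts were tested on simulated data. Alternatives were DESeq2 1.42.0, no TMM, other count filters, the replicate block and leaving out samples. The text names the 10 members with every set and guide, the 2 genes of each pathway list with the most negative and the 2 with the most positive mean growth phenotype, and the 3 nearest sets to NUDC and to NUDCD3. The members and lists were chosen with earlier results of these data known.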

Additional observations from a re-analysis of the deposited data

Results flagged for a closer look

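Of 36 groups of 4 to 10 samples, 11 held a sample set apart from the others by Dixon's criterion, where chance flags about 1 in 20 groups, and 10 of these samples were titration samples at 10-fold coverage. In the LGR titration they were the phenotypes of DYNC1H1 (-1.11) and NUDCD3 (-2.40) and the NUDC minus NUDCD3 difference (1.56) in the second 10-fold sample, and those of DYNLRB1 P1 (-0.89) and NUDC (-0.997) in the first. In the legacy titration all were in the first 10-fold sample: DYNC1H1 (0.65), DYNLRB1 P1 (-2.28), NDEL1 (2.07), NUDCD1 (1.48) and PAFAH1B1 (-2.30). The 10-fold replicates also had counts that were furthest apart of the pairs compared, at 51.4 (LGR) and 86.7 (legacy) times counting error. In the 100-fold survival screen, NDEL1 in Tf replicate 4 (-0.62) lay apart from the other Tf samples.

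Between the libraries, 3 set phenotypes pointed opposite ways in every sample, and this difference was not tested at the level of the set. LGR minus legacy was -0.19 for DYNLRB1 P2 and -0.58 for NUDCD1 in DMSO over T0, and -0.87 for NUDCD1 in dasatinib over DMSO.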

How the results depend on the processing

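Of the alternatives to the values that answer a comparison, 172 kept direction and side of the threshold or a count within 1.5 times, 25 moved, 4 changed sign and 3 newly passed the threshold. Of the alternatives to single member phenotypes, 405 moved by less than the spread between samples and 109 by more, and none of the called ones changed sign. Leaving out 1 sample gave 13 to 24 member guides called lower in the 100-fold screen, 19 to 33 under DMSO in LGR and 0 to 10 and 2 to 9 called higher under dasatinib in LGR and legacy. It gave 1 to 2 member sets called higher under dasatinib in LGR and 0 to 1 member guides differing between libraries in DMSO over T0. In LGR under dasatinib, 0 member guides were called without TMM scaling and 5 with DESeq2, and 2 sets without the count minimum. Without the 10-fold samples, 2 titration guides were called in LGR and 5 in legacy.

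NUDC minus NUDCD3 ranged from -0.34 to 0.14 in the 1000-fold screen, from -0.28 to 0.92 in the 100-fold screen and from -1.14 to 0.21 under DMSO in LGR when 1 sample was left out, turning sign in each. Under dasatinib it ranged from -3.77 to -2.89 in LGR and from -4.26 to -3.37 in legacy. With the 3 strongest guides it was -4.06 and -4.70, without the count minimum -2.24 in LGR, and with 1 added to every count -3.54 in legacy. In the titration it was -0.02 in LGR without the 10-fold samples (exact p = 0.812), and in legacy 0.57 without them (exact p = 0.0312), 0.93 with the 3 strongest guides (exact p = 0.0156) and 0.65 with the median of all guides (exact p = 0.00781), all by the sign-flip test and not adjusted over the libraries. The cause was not tested.

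Over all guides, DESeq2 called 1743 higher and 355 lower under dasatinib in LGR, where edgeR called 97 and 4, and 2044 and 369 in legacy, where edgeR called 574 and 35. With 1 dasatinib sample left out the number higher was 11838 and 12167 in LGR and 9465 and 9705 in legacy. Without a DMSO sample it was 12 and 21 in LGR and 177 and 179 in legacy, and without TMM 64 in LGR. Leaving out a T0 sample gave 3131 and 3160 guides lower in the 100-fold screen (5848 with both), 3373 and 3432 under DMSO in LGR (7635) and 4071 and 4161 in legacy (6993). Without TMM the 1000-fold screen split into 8697 lower and 2852 higher, against 9343 and 1117 with it, and the median log2 change of all guides under dasatinib was -0.12 in LGR and -0.11 in legacy, against 0.03 and 0.02. Dropping the 10-fold samples gave 2043 guides lower and 54 higher in the LGR titration, where all coverages gave 21 and 1, and 986 and 746 in legacy, where they gave 0 and 14, and DESeq2 gave 66 and 3 in LGR and 5 and 227 in legacy. Replicate numbers did not pair the samples (correlations of deviations 0.002, 0.001 and 0.0). With the replicate block, 4 and 5 member guides were higher under dasatinib in LGR and legacy and 23 lower in the 100-fold screen, with 786 and 2041 of all guides higher under dasatinib. The T0 sample of the 1000-fold screen and each plasmid had no replicate to leave out. Depth limits depleted guides most: a guide at 0 in the dasatinib screens could hold up to 3 counts.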

Other observations

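Guides against NUDCD2 were unevenly represented in the legacy pool. The guide at 162886860 had 778 counts in the LGR plasmid and 0 in the legacy plasmid and in every legacy cell sample, which allows up to 3 counts in each, and the guide at 162887091 had 1117 counts in the LGR plasmid and 124 in the legacy plasmid. Legacy NUDCD2 phenotypes in the dasatinib screen therefore rest on 3 guides, where LGR has 5.

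NDEL1 guides summed to 72.3 and 33.9 CPM under dasatinib in LGR, against 38.3 and 33.6 CPM under DMSO. The guide at 8339269 had 372 and 91 counts under dasatinib, against 46 and 59 under DMSO.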
